A study of Mus musculus with 8 samples.

Results

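The 60 genes described here encode cyclins and kinases of G2 and mitosis and proteins of the spindle, the kinetochore, condensin and cytokinesis. They are listed by name for these roles, and no measured value enters the rule. The genes, and the related lists set beside them, were however chosen with earlier results of these data known. All 60 were found by Ensembl identifier among the 31053 genes counted, and 59 passed the filter on low counts and were tested. Before a cell divides it builds a bipolar spindle, condenses its chromosomes and attaches each of them to microtubules through a kinetochore, and the mRNAs for most of this machinery accumulate in G2 and mitosis and fall in G1. The level of these mRNAs in a population is therefore often read as a sign of cycling cells. Fibro/adipogenic progenitors (FAPs) are mesenchymal cells of skeletal muscle that multiply after injury and, in dystrophic muscle, give rise to fibroblasts and adipocytes.

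RNA was sequenced from FAPs of hind limb muscles of *mdx* mice (C57BL/10ScSn-Dmdmdx/J, 45 days of age), which lack functional dystrophin. By the study's methods the cells were sorted as CD45-, CD31-, ITGA7- and SCA-1+ and then divided by a high or a low amount of the surface protein SCA-1 into SCA1-High-FAPs and SCA1-Low-FAPs, with 4 samples of each. All 8 samples had spent 5 days in culture in growth medium (GM), so the levels are those of expanded cells and not of freshly sorted ones, and no healthy mice are among these samples. The study defines biological replicates as primary cells of different mice.

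Between 1880561 and 3985656 counts per sample fell on genes, so that 3 counts corresponded to 0.753 to 1.60 CPM (counts scaled to a common library size). Levels are given in CPM after TMM scaling and stand for 3′ ends counted, so that they do not depend on gene length. Alignment records that were not unique, which the authors did not count, made up 37.5% to 39.7% in SCA1-High-FAPs and 40.8% to 43.3% in SCA1-Low-FAPs. This is a share of records and not of reads. The cell states did not overlap in it, and its part in the results was not tested. The FAP marker *Pdgfra* was present in all samples, while *Pax7*, *Myod1*, *Myf5* and *Myog* of myogenic cells and *Adgre1*, *Cd3e* and *Itgam* of leukocytes had no count in any sample. *Ly6a*, which encodes SCA-1, went against the label at the mRNA level. Its level was 492, 789, 645 and 919 CPM in SCA1-High-FAPs against 1100, 1080, 1156 and 1014 CPM in SCA1-Low-FAPs, with each SCA1-Low sample above each SCA1-High sample (log2 fold change 0.61 ± 0.17 SE, adjusted *p* = 0.0341 by edgeR, 0.0573 with a replicate block), so the names of the groups are those of the protein at the sort.

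Many genes of this kind carry 2 short promoter elements near their start. The CHR, the cell cycle genes homology region, is bound by the MuvB core that the DREAM, B-MYB and FOXM1 complexes share, and the CCAAT box is bound by NF-Y. Here the CHR was searched as TTTGAA or TTCGAA and the CCAAT box as CCAAT, on both strands and in the RefSeq promoters of GRCm38.p6, which run from 250 bases before to 50 after each start. A CHR and a CCAAT box may share a base at their ends, and TTCGAA, which reads the same on both strands, was counted once. The 6 promoters below are those of the called genes with the lowest adjusted *p*-values that hold both elements. Each is given from 150 bases before to 50 bases after the start, 5′ to 3′ on the strand of the gene, and capitals mark every match on either strand.
Aurka, chr2:172370521-172370720, minus strand: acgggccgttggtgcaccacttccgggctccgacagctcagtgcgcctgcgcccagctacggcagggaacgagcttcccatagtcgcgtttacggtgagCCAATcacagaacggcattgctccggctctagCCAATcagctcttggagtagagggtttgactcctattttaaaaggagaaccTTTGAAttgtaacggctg
Plk1, chr7:122159285-122159484, plus strand: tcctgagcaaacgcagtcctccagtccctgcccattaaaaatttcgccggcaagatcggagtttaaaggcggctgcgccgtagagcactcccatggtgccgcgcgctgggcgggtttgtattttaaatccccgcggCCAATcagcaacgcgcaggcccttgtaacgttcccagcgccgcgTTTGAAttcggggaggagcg
Prc1, chr7:80294301-80294500, plus strand: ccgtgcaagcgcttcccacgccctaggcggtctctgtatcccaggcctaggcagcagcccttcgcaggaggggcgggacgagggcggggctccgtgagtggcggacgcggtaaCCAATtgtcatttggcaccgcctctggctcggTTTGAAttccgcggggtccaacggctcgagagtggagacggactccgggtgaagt
Top2a, chr11:99024140-99024339, minus strand: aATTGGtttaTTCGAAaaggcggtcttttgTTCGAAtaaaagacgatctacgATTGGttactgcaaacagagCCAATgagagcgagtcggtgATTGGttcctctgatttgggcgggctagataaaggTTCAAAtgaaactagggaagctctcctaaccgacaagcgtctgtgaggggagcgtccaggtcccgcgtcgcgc
Mki67, chr7:135716330-135716529, minus strand: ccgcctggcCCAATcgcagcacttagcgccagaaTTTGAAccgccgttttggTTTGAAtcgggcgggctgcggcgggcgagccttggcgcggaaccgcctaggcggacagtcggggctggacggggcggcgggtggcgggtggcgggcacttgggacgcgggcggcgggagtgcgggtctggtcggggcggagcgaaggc
Cenpf, chr1:189688037-189688236, minus strand: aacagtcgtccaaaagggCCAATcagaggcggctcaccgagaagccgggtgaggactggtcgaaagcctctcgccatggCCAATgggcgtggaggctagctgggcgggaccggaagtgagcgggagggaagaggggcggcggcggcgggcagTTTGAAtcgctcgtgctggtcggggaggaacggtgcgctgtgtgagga

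Counting the first transcribed base as 1, the CHR began at base 33 in *Aurka*, at base 31 in *Plk1* and at base 3 in *Cenpf*, and in *Prc1* it began 5 bases before the start. These 4 genes held 1 CHR each, downstream of 1 or 2 forward CCAAT boxes. *Top2a* differed from them, with 4 CHR and 6 CCAAT matches in its 300 bases, of which 3 and 4 lie in the part printed. *Mki67* had both of its CHR matches upstream, at 116 and 98 bases before the start.

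Most of the set held both elements. Of the 60 genes, 48 had a promoter in the table, and 37 of the 48 (77.1%) held a CHR, 37 (77.1%) a CCAAT box and 33 (68.8%) both. Over all tested genes with a promoter, 8095 in number, the shares were 16.0%, 43.2% and 6.67%. At least 2 CCAAT boxes were found in 52.1% of the mitosis and spindle genes against 17.2% of all tested genes. A match is a description of the letters and not a binding site. Among the genes with a promoter, a CHR was found in 17 of the 24 that were called (70.8%) and in 20 of the 24 that were not (83.3%), and a CCAAT box in 19 (79.2%) and 18 (75.0%). No match to either element was found in the windows of *Cit*, *Kif18a*, *Mad2l1*, *Ncaph*, *Nuf2*, *Nusap1* and *Pttg1*. *Ccna2*, *Cdc25c*, *Pbk*, *Spc24*, *Ska1*, *Aurkb*, *Incenp*, *Smc4*, *Cdca2*, *Tpx2*, *Dlgap5* and *Kif20a* had no entry in the table.

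The position of the matches differed as well. Of 53 CHR matches 37 (69.8%) fell between 60 bases before and 50 after the start, a stretch that makes up 36.7% of the window and held 27.3% of the matches of all tested genes. Of 89 CCAAT matches 62 (69.7%) fell in the 120 bases before the start, against 56.1% of the matches of all tested genes. The CHR lay on the opposite strand in 15 of its 53 matches. The other 38 were on the strand of the gene or were TTCGAA, which has no orientation. The CCAAT box was forward in 48 and reversed in 41. A site within overlapping promoters of the same gene was counted in each.

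**Figure D1:**
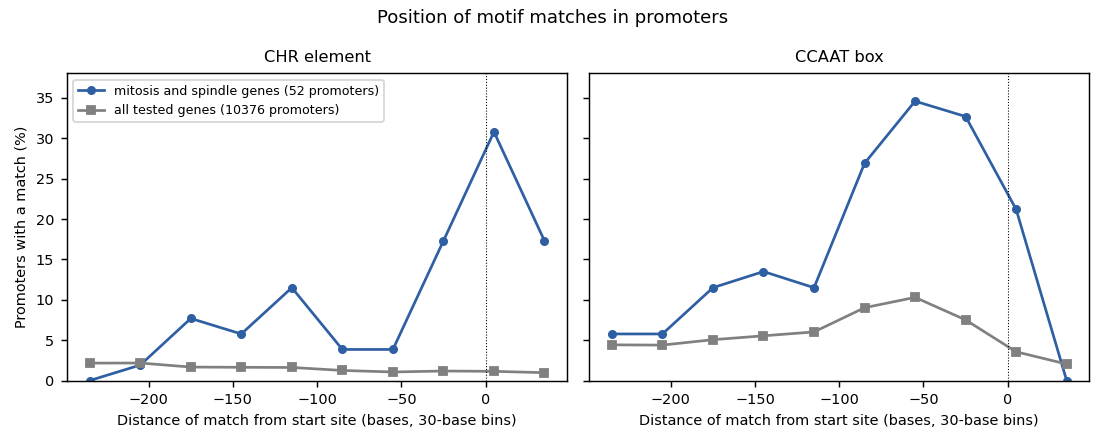
Share of promoters with a match to the CHR (left) or the CCAAT box (right) in 30-base bins by distance from the start, for the 52 promoters of 48 mitosis and spindle genes (blue) and the 10376 promoters of all tested genes (grey). The blue line reaches its top at the start for the CHR, with 30.8% of promoters in the bin that spans it, and upstream of the start for the CCAAT box, with 34.6% in the bin from 70 to 41 bases before it.

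The first question was whether the 2 cell states differed in the mRNAs of mitosis after 5 days in GM. The mitosis and spindle genes were higher in SCA1-Low-FAPs. Their summed level was 2805, 2903, 2100 and 2732 CPM in SCA1-High-FAPs 1 to 4 against 5223, 4961, 3805 and 5159 CPM in SCA1-Low-FAPs 1 to 4, an order of replicates that is kept throughout. Each SCA1-Low sample was above each SCA1-High sample, and in both cell states replicate 3 was the lowest. The means were 2635 ± 363 and 4787 ± 664 CPM (SD, n = 4), a ratio of 1.82. In bulk RNA a larger share of cells in mitosis and more of these mRNAs per cell cannot be told apart. In a separate culture assay, seeded at a lower density than the cells sequenced, the study measured a shorter doubling time in SCA1-High-FAPs. Their share of Ki-67 positive cells fell sooner, and the paper attributes that fall to earlier confluence. In *mdx* mice injected with EdU, a label of DNA synthesis, the study also found more labelled cells among SCA1-High-FAPs than among SCA1-Low-FAPs. The confluence of the samples sequenced here is not given in the sources used, and its part in the results was not tested.

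A gene was called where its adjusted *p*-value was under 0.05 and its log2 fold change, given throughout as SCA1-Low over SCA1-High, was beyond 0.5. Of the 59 tested genes 30 were called (edgeR), beside 7.68% of all 10181 tested genes, and 43 had an unadjusted *p*-value under 0.05. All 30 were higher in SCA1-Low-FAPs, a call that 3.32% of all tested genes had. None was called higher in SCA1-High-FAPs (0 of 59), against 4.36% of all tested genes. DESeq2 called 36, all in the same direction. The log2 fold change was above 0 in 58 of the 59, against 50.0% of all tested genes, and its median was 0.92, a 1.90-fold difference, beside a median of 0.0003 over all tested genes. The exception was *Ncaph*. In 34 genes the 4 SCA1-Low samples all lay above the 4 SCA1-High samples, which held for 6.67% of all tested genes. The number called depended on single samples, since it fell to 18 without SCA1-Low-FAPs 1 and to 19 without SCA1-Low-FAPs 4.

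The called genes differed 1.43- to 4.81-fold, with a median log2 fold change of 1.06. The number of calls went with the level of the genes, while the size of the difference did not. The 29 genes above the median level, with means of 35.8 to 463 CPM, had 19 calls and a median SE of 0.22 on the log2 scale. The 30 genes at or below it, with means of 5.40 to 35.5 CPM, had 11 calls and a median SE of 0.35. Both sets had a median log2 fold change of 0.92.

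**Figure D2:**
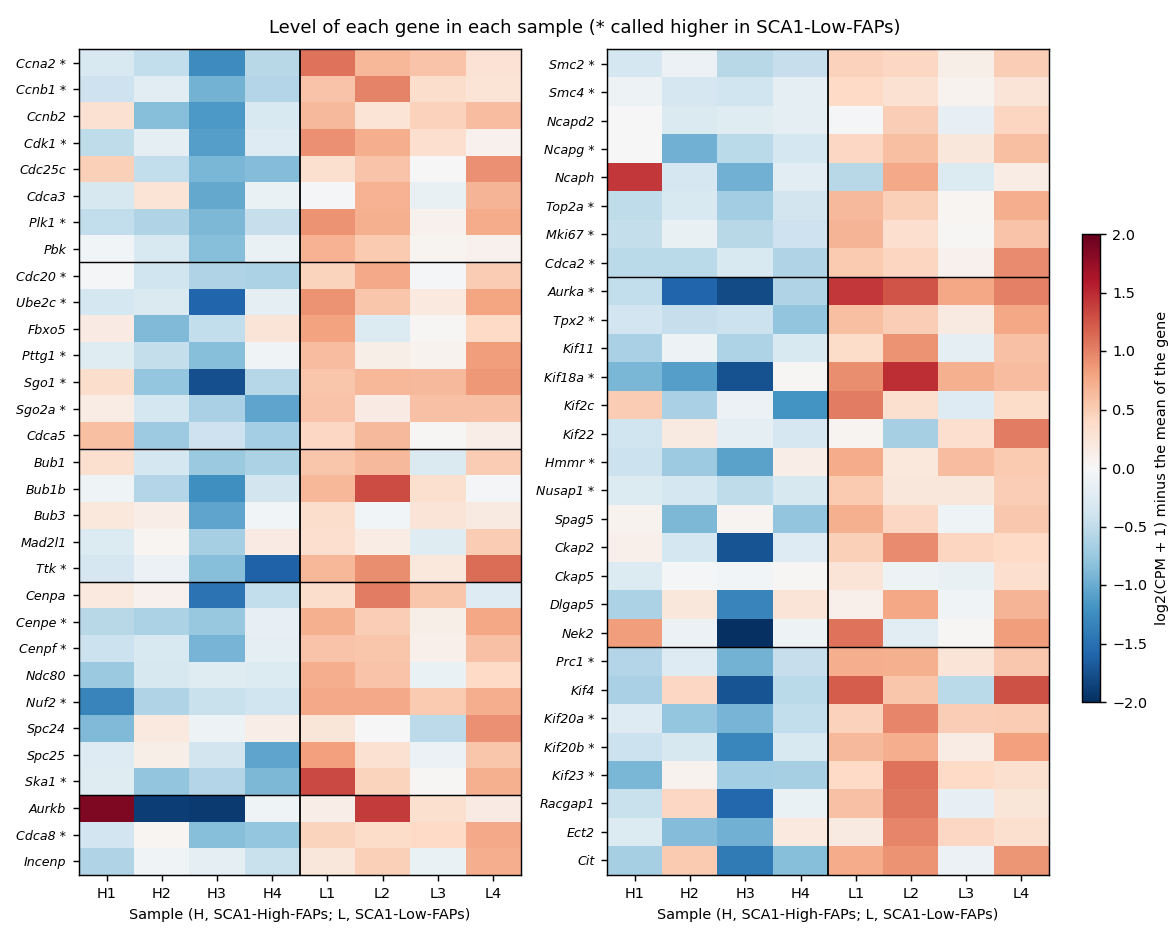
Level of each of the 60 genes in each of the 8 samples, as log2(CPM + 1) minus the mean of the gene, with colours limited to 2 in either direction, black lines between roles and an asterisk on called genes. SCA1-High-FAPs 3 was the lowest of the 8 samples in 38 of the 59 tested genes, and SCA1-Low-FAPs 3 was the lowest of its group in 39.

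Replicate 3 thus stood low in both cell states, which widened the difference through SCA1-High-FAPs 3 and narrowed it through SCA1-Low-FAPs 3. SCA1-High-FAPs 3 gave 0.204% of its counts to these genes, against 0.274% to 0.294% in the other SCA1-High samples. SCA1-Low-FAPs 3 gave 0.386%, against 0.484% to 0.520% in the other SCA1-Low samples. Without SCA1-High-FAPs 3 the number called was 23 and the median log2 fold change 0.80. Without SCA1-Low-FAPs 3 they were 34 and 0.97.

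**Figure D3:**
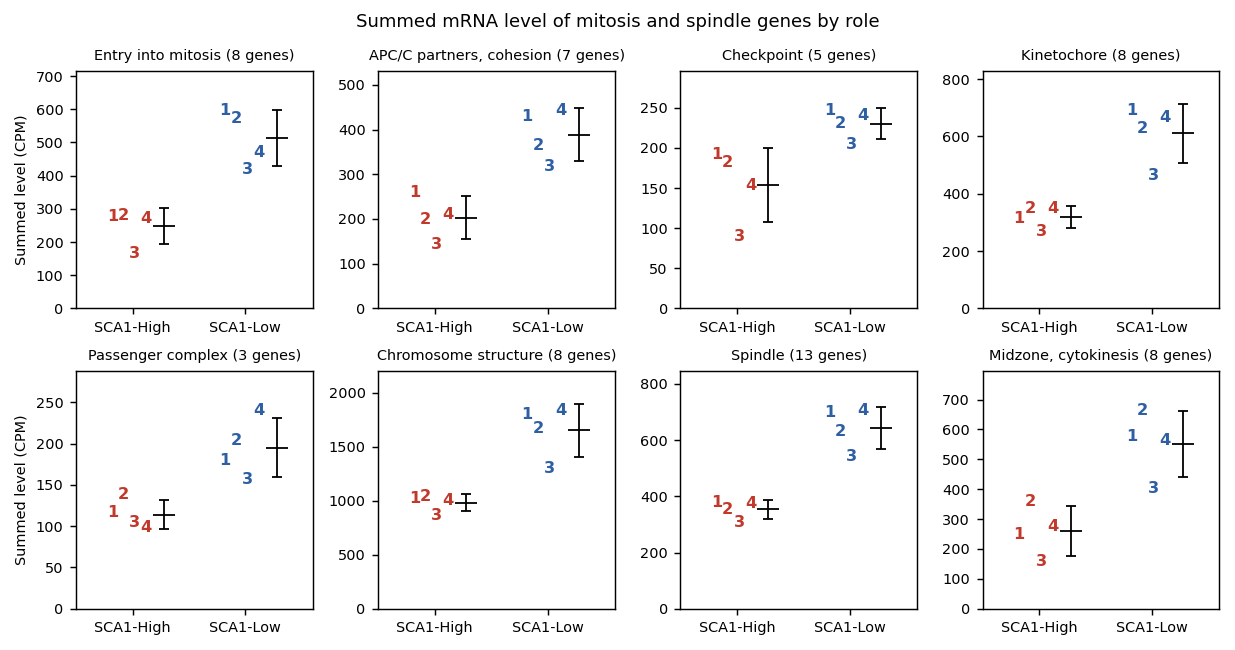
Summed level in CPM of the genes of each role, with 1 digit per sample giving its replicate number, SCA1-High-FAPs in red, SCA1-Low-FAPs in blue, and bars for the mean and SD (n = 4). In all 8 roles the SCA1-Low samples lay above the SCA1-High samples, with ratios from 1.5 for the checkpoint to 2.12 for midzone and cytokinesis.

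Entry into mitosis is driven by CDK1 bound to cyclins A and B, with feedback from polo-like kinase and the phosphatase CDC25C. The 8 genes of this role had a median log2 fold change of 1.02, and 4 were called. *Plk1* (ENSMUSG00000030867, chr7:122159439-122169873, plus strand) encodes the polo-like kinase, which acts from entry through to cytokinesis. It was measured at 54.1, 50.2, 40.9 and 55.7 CPM in SCA1-High-FAPs against 144, 127, 81.8 and 129 CPM in SCA1-Low-FAPs. The cell states did not overlap, and even the lowest SCA1-Low sample, replicate 3, was well above the highest SCA1-High sample (log2 fold change 1.26 ± 0.20 SE, adjusted *p* = 0.00119, edgeR). *Cdk1* (ENSMUSG00000019942, chr10:69335146-69352938, minus strand), the kinase itself, stood at 78.6, 98.6, 51.8 and 93.5 CPM in SCA1-High-FAPs against 212, 187, 143 and 120 CPM in SCA1-Low-FAPs. SCA1-Low-FAPs 4 was here the lowest of its group, still above all SCA1-High samples (log2 fold change 1.03 ± 0.22 SE, adjusted *p* = 0.00753, edgeR). *Ccnb1* (ENSMUSG00000041431, chr13:100778650-100786570, minus strand), which encodes cyclin B1, was at 33.0, 38.0, 22.5 and 29.3 CPM in SCA1-High-FAPs against 66.2, 89.8, 56.8 and 53.9 CPM in SCA1-Low-FAPs. It was highest in SCA1-Low-FAPs 2 and did not overlap between the cell states (log2 fold change 1.11 ± 0.24 SE, adjusted *p* = 0.00762, edgeR). The last 300 bases of *Ccnb1* match 5 other annotated genes, *Ccnb1-ps* among them, at 95% identity or more over at least 100 bases, and reads that could not be placed between them were not counted. *Ccna2* (ENSMUSG00000027715, chr3:36564865-36572150, minus strand), which encodes cyclin A2, was at 20.2, 17.6, 10.0 and 16.9 CPM in SCA1-High-FAPs against 54.6, 40.8, 38.1 and 31.2 CPM in SCA1-Low-FAPs. The lowest SCA1-Low sample was replicate 4 and the highest SCA1-High sample replicate 1, with a gap between them (log2 fold change 1.34 ± 0.28 SE, adjusted *p* = 0.00762, edgeR). The remaining 4 were not called. Their log2 fold changes were 0.93 for *Ccnb2*, the cyclin B2 gene, 1.00 for *Cdc25c*, 0.70 for the mitotic kinase gene *Pbk* and 0.60 for *Cdca3*. *Ccnb2* came nearest to the threshold, with an adjusted *p*-value of 0.0596 (edgeR), and SCA1-High-FAPs 1 reached into the range of the SCA1-Low samples.

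Exit from mitosis depends on the anaphase-promoting complex, which marks securin and cyclin B for destruction once CDC20 has bound it, and on shugoshins, which guard cohesin at centromeres until then. Of the 7 genes of this role 5 were called, with a median log2 fold change of 0.86 over the role. *Ube2c* (ENSMUSG00000001403, chr2:164769898-164778822, plus strand), the ubiquitin-conjugating enzyme of the complex, was at 48.5, 51.1, 20.0 and 54.3 CPM in SCA1-High-FAPs against 117, 92.0, 71.4 and 108 CPM in SCA1-Low-FAPs. SCA1-High-FAPs 3 stood below the other 3 of its group, and all SCA1-Low samples were higher (log2 fold change 1.16 ± 0.26 SE, adjusted *p* = 0.0128, edgeR). *Cdc20* (ENSMUSG00000006398, chr4:118432901-118437352, minus strand), the activator, was at 56.0, 43.4, 37.6 and 37.0 CPM in SCA1-High-FAPs against 78.8, 98.0, 57.1 and 82.1 CPM in SCA1-Low-FAPs. SCA1-High-FAPs 1 and SCA1-Low-FAPs 3 came within a few CPM of each other without overlap (log2 fold change 0.86 ± 0.22 SE, adjusted *p* = 0.02, edgeR). *Pttg1* (ENSMUSG00000020415, chr11:43420250-43426251, minus strand), which encodes securin, the inhibitor of separase, was at 61.2, 52.0, 39.7 and 68.9 CPM in SCA1-High-FAPs against 112, 78.4, 76.4 and 131 CPM in SCA1-Low-FAPs. SCA1-Low-FAPs 2 and 3 were close above SCA1-High-FAPs 4, and SCA1-Low-FAPs 1 and 4 were far above it (log2 fold change 0.84 ± 0.22 SE, adjusted *p* = 0.0256, edgeR). *Sgo2a* (ENSMUSG00000026039, chr1:57995971-58025899, plus strand), a shugoshin, was at 47.1, 33.0, 26.7 and 19.8 CPM in SCA1-High-FAPs against 63.3, 47.4, 64.1 and 63.9 CPM in SCA1-Low-FAPs. SCA1-Low-FAPs 2 lay below the rest of its group and just above SCA1-High-FAPs 1 (log2 fold change 0.92 ± 0.25 SE, adjusted *p* = 0.033, edgeR). The other shugoshin gene, *Sgo1*, was called as well (log2 fold change 1.26 ± 0.37 SE, adjusted *p* = 0.0447, edgeR). The genes *Fbxo5*, for the inhibitor EMI1, and *Cdca5*, for the cohesin protector sororin, were not called, with log2 fold changes of 0.49 and 0.60.

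The spindle checkpoint holds the anaphase-promoting complex back until every kinetochore is attached. Here 1 of 5 genes was called, and the median log2 fold change was 0.74. *Ttk* (ENSMUSG00000038379, chr9:83834689-83872389, plus strand), which encodes the kinase MPS1 at the top of the pathway, was at 20.2, 23.5, 13.8 and 7.70 CPM in SCA1-High-FAPs against 41.1, 49.5, 29.8 and 57.0 CPM in SCA1-Low-FAPs. All SCA1-Low samples were above SCA1-High-FAPs 2, the highest of its group (log2 fold change 1.45 ± 0.33 SE, adjusted *p* = 0.0103, edgeR). *Bub1b* (ENSMUSG00000040084, chr2:118598211-118641591, plus strand), for the inhibitor BUBR1, was at 13.2, 9.04, 5.43 and 10.6 CPM in SCA1-High-FAPs against 22.7, 35.9, 17.8 and 13.7 CPM in SCA1-Low-FAPs. SCA1-Low-FAPs 4 was only just above SCA1-High-FAPs 1, and the adjusted *p*-value was 0.0613 (edgeR, log2 fold change 1.22). *Bub1* (ENSMUSG00000027379, chr2:127801122-127831865, minus strand), a kinetochore kinase, was at 15.1, 9.04, 6.68 and 7.33 CPM in SCA1-High-FAPs against 17.9, 19.1, 9.52 and 17.2 CPM in SCA1-Low-FAPs. SCA1-Low-FAPs 3 fell inside the SCA1-High range (log2 fold change 0.74 ± 0.39 SE, adjusted *p* = 0.303, edgeR). *Bub3* (ENSMUSG00000066979, chr7:131560222-131571895, plus strand), the partner of both, was at 128, 121, 52.6 and 106 CPM in SCA1-High-FAPs against 141, 106, 132 and 125 CPM in SCA1-Low-FAPs. The other 7 samples lay between 106 and 141 CPM, and SCA1-High-FAPs 3 stood below them (log2 fold change 0.31 ± 0.22 SE, adjusted *p* = 0.478, edgeR). *Mad2l1*, for the CDC20 inhibitor MAD2, had a log2 fold change of 0.39 and was not called.

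At the kinetochore, the NDC80 complex and the SKA complex bind microtubule ends and CENP-E carries chromosomes along them. The 8 genes had a median log2 fold change of 0.86, and 4 were called. *Cenpe* (ENSMUSG00000045328, chr3:135212537-135273611, plus strand), the kinetochore motor, was at 94.6, 89.5, 81.4 and 124 CPM in SCA1-High-FAPs against 228, 196, 151 and 237 CPM in SCA1-Low-FAPs. SCA1-High-FAPs 4 was the highest of its group and remained below SCA1-Low-FAPs 3 (log2 fold change 1.06 ± 0.18 SE, adjusted *p* = 0.00185, edgeR). *Nuf2* (ENSMUSG00000026683, chr1:169497934-169531464, minus strand), an NDC80 complex subunit, was at 8.47, 14.5, 16.3 and 16.9 CPM in SCA1-High-FAPs against 38.7, 38.7, 33.0 and 37.8 CPM in SCA1-Low-FAPs. The SCA1-Low samples lay close together, far above all SCA1-High samples (log2 fold change 1.39 ± 0.28 SE, adjusted *p* = 0.0047, edgeR). *Cenpf* (ENSMUSG00000026605, chr1:189640606-189688086, minus strand), a large kinetochore and microtubule protein of G2 and mitosis, was at 83.8, 91.8, 58.9 and 100 CPM in SCA1-High-FAPs against 168, 167, 122 and 171 CPM in SCA1-Low-FAPs. SCA1-Low-FAPs 3 was below the other 3 of its group, which were nearly equal (log2 fold change 0.90 ± 0.19 SE, adjusted *p* = 0.00615, edgeR). *Ska1* (ENSMUSG00000036223, chr18:74195299-74207818, minus strand), of the SKA complex, was at 10.4, 6.78, 7.93 and 6.23 CPM in SCA1-High-FAPs against 32.4, 17.4, 12.7 and 21.1 CPM in SCA1-Low-FAPs. SCA1-Low-FAPs 3 came near SCA1-High-FAPs 1 without reaching it (log2 fold change 1.41 ± 0.38 SE, adjusted *p* = 0.0286, edgeR). The subunits of the NDC80 complex were not alike in their calls. *Ndc80* had a log2 fold change of 0.81 with groups that did not overlap and an adjusted *p*-value of 0.0531, *Spc25* one of 0.78 with 0.0731 and *Spc24* one of 0.38 with 0.574 (edgeR). *Cenpa*, for the histone H3 variant of centromeres, had a log2 fold change of 0.79 and was not called. Differences between these subunits were not tested.

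The chromosomal passenger complex moves from centromeres to the midzone and corrects faulty attachments. Of its 3 genes in the set 1 was called. *Cdca8* (ENSMUSG00000028873, chr4:124918465-124939311, minus strand), which encodes borealin, was at 43.8, 58.8, 31.3 and 33.0 CPM in SCA1-High-FAPs against 78.3, 74.6, 76.1 and 97.1 CPM in SCA1-Low-FAPs. SCA1-Low-FAPs 4 was above the other 3 of its group, which were close together and above all SCA1-High samples (log2 fold change 0.97 ± 0.22 SE, adjusted *p* = 0.0112, edgeR). *Incenp* (ENSMUSG00000024660, chr19:9872296-9899551, minus strand), the scaffold, was at 54.1, 79.1, 72.6 and 60.9 CPM in SCA1-High-FAPs against 96.7, 116, 75.5 and 138 CPM in SCA1-Low-FAPs. SCA1-Low-FAPs 3 fell below SCA1-High-FAPs 2, and the adjusted *p*-value missed the threshold at 0.0506 (edgeR, log2 fold change 0.68). *Aurkb*, for the kinase of the complex, rested on 1 to 39 counts per sample. It had 18.4 CPM in SCA1-High-FAPs 1 and 0.418 to 4.03 CPM in the other SCA1-High samples, against 4.83 to 13.1 CPM in the SCA1-Low samples. Its log2 fold change was 0.29, and 2.03 without SCA1-High-FAPs 1.

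Condensin compacts mitotic chromosomes and topoisomerase II untangles them. This role had the most calls, 6 of 8, with a median log2 fold change of 0.78. *Top2a* (ENSMUSG00000020914, chr11:98992943-99024189, minus strand), for topoisomerase II alpha, was at 304, 349, 267 and 337 CPM in SCA1-High-FAPs against 680, 601, 445 and 718 CPM in SCA1-Low-FAPs. Every SCA1-Low sample was above every SCA1-High sample by a wide margin (log2 fold change 0.96 ± 0.16 SE, adjusted *p* = 0.00178, edgeR). *Mki67* (ENSMUSG00000031004, chr7:135689784-135716361, minus strand), the gene of the proliferation antigen Ki-67, which coats mitotic chromosomes, was at 137, 172, 130 and 143 CPM in SCA1-High-FAPs against 308, 241, 194 and 285 CPM in SCA1-Low-FAPs. The nearest samples were SCA1-High-FAPs 2 and SCA1-Low-FAPs 3 (log2 fold change 0.82 ± 0.17 SE, adjusted *p* = 0.00571, edgeR). *Smc2* (ENSMUSG00000028312, chr4:52439243-52488260, plus strand) and *Smc4* (ENSMUSG00000034349, chr3:69004738-69034623, plus strand) encode the ATPase pair of condensin. *Smc2* was at 148, 175, 129 and 138 CPM in SCA1-High-FAPs against 260, 252, 206 and 267 CPM in SCA1-Low-FAPs. *Smc4* was at 296, 254, 241 and 280 CPM in SCA1-High-FAPs against 419, 394, 336 and 383 CPM in SCA1-Low-FAPs. Both kept the cell states apart, with SCA1-Low-FAPs 3 the lowest of its group in each (log2 fold change 0.74 ± 0.15 SE, adjusted *p* = 0.00641 for *Smc2* and log2 fold change 0.52 ± 0.14 SE, adjusted *p* = 0.029 for *Smc4*, edgeR). *Cdca2*, for a phosphatase subunit that acts on chromosomes at mitotic exit, and *Ncapg*, for a condensin I subunit, were called too, with log2 fold changes of 1.07 and 0.93. The other condensin I subunits, *Ncapd2* and *Ncaph*, were not, with 0.39 and -0.18. *Ncaph* was at 23.5, 6.33, 3.76 and 6.97 CPM in SCA1-High-FAPs against 5.32, 14.7, 6.66 and 9.24 CPM in SCA1-Low-FAPs, so that SCA1-High-FAPs 1 alone was above all others, and its log2 fold change was 0.64 without that sample.

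Spindle poles and spindle microtubules are organised by Aurora A with its activator TPX2 and by motors of the kinesin family. Of 13 genes 12 were tested and 5 called, with a median log2 fold change of 0.84. *Aurka* (ENSMUSG00000027496, chr2:172356190-172370535, minus strand), for Aurora A, had the widest difference of all 59 genes and was at 10.8, 4.52, 3.76 and 9.90 CPM in SCA1-High-FAPs against 43.0, 38.7, 27.3 and 32.2 CPM in SCA1-Low-FAPs. The lowest SCA1-Low sample, replicate 3, was far above the highest SCA1-High sample, replicate 1, and the fold change was 4.81 (log2 fold change 2.27 ± 0.35 SE, adjusted *p* = 0.00109, edgeR). *Tpx2* (ENSMUSG00000027469, chr2:152847964-152895321, plus strand) was at 85.2, 80.5, 82.2 and 63.8 CPM in SCA1-High-FAPs against 169, 156, 126 and 191 CPM in SCA1-Low-FAPs. SCA1-High-FAPs 1 to 3 were nearly equal, and all SCA1-Low samples were higher (log2 fold change 1.04 ± 0.17 SE, adjusted *p* = 0.00149, edgeR). *Hmmr* (ENSMUSG00000020330, chr11:40701395-40733422, minus strand), for a spindle pole protein that also binds hyaluronan, was at 51.3, 41.6, 32.6 and 76.3 CPM in SCA1-High-FAPs against 117, 81.1, 107 and 101 CPM in SCA1-Low-FAPs. SCA1-High-FAPs 4 was the highest of its group and came near SCA1-Low-FAPs 2, the lowest of the other (log2 fold change 1.01 ± 0.23 SE, adjusted *p* = 0.0129, edgeR). *Nusap1* (ENSMUSG00000027306, chr2:119618298-119651244, plus strand), which bundles microtubules near chromosomes, was at 51.8, 48.8, 43.8 and 50.2 CPM in SCA1-High-FAPs against 90.9, 73.5, 73.3 and 88.7 CPM in SCA1-Low-FAPs. Spread within each cell state was small, and they did not overlap (log2 fold change 0.75 ± 0.18 SE, adjusted *p* = 0.0166, edgeR). *Kif18a*, for the kinesin that shortens kinetochore microtubules, had the second widest difference (log2 fold change 1.95 ± 0.49 SE, adjusted *p* = 0.0198, edgeR), on 4 to 48 counts per sample. The other 7 tested genes were not called. The log2 fold changes were 0.90 for *Kif11*, the motor that pushes poles apart, 0.71 for the depolymerase gene *Kif2c*, 0.53 for the chromokinesin gene *Kif22*, 0.79 for *Spag5*, 1.02 for *Ckap2*, 0.68 for *Dlgap5* and 0.18 for the microtubule polymerase gene *Ckap5*. *Ckap2* did not overlap between the cell states and had an adjusted *p*-value of 0.0551 (edgeR). *Nek2*, for a kinase that splits centrosomes, was the gene that did not pass the filter, with 104 counts over 8 samples. Its level was 8.00, 3.62, 0 and 3.67 CPM in SCA1-High-FAPs against 9.67, 3.27, 4.12 and 7.92 CPM in SCA1-Low-FAPs, and the cell states overlapped.

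**Figure D4:**
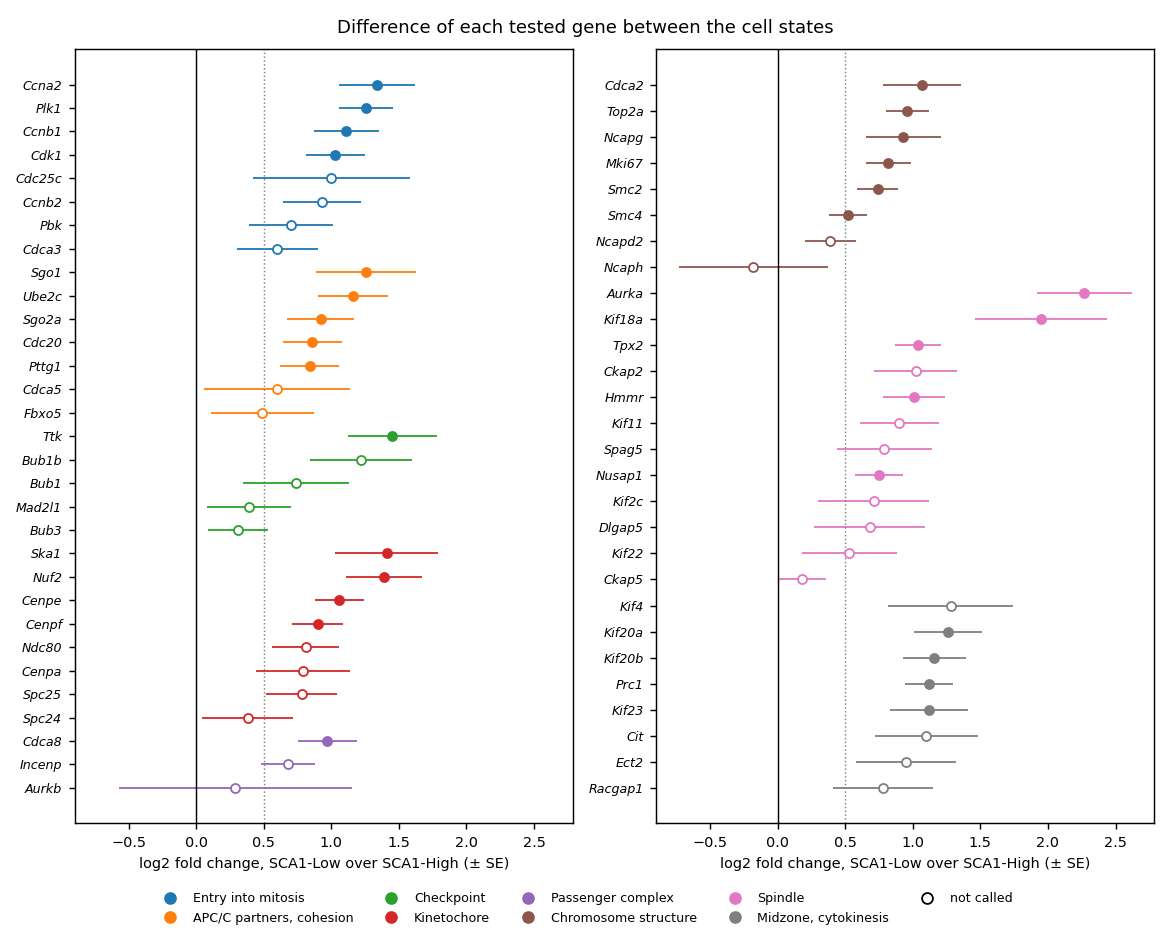
Log2 fold change of SCA1-Low over SCA1-High with its SE for each of the 59 tested genes, coloured by role and sorted within it, filled where called, with a dotted line at 0.5. All called genes lie to the right, from 0.52 for *Smc4* to 2.27 for *Aurka*, and the widest bars belong to *Aurkb*, *Cdc25c*, *Ncaph* and *Cdca5*.

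After anaphase the midzone is bundled by PRC1 and kinesins, and the centralspindlin complex recruits ECT2 to start the cleavage furrow. Of the 8 genes 4 were called, and the median log2 fold change of 1.12 was the highest of the 8 roles, a description with no test between roles. *Prc1* (ENSMUSG00000038943, chr7:80294450-80316259, plus strand) was at 67.3, 84.5, 51.8 and 73.3 CPM in SCA1-High-FAPs against 168, 166, 121 and 148 CPM in SCA1-Low-FAPs. The groups stood apart, with SCA1-Low-FAPs 3 the lowest and SCA1-High-FAPs 2 the nearest to it (log2 fold change 1.12 ± 0.18 SE, adjusted *p* = 0.00144, edgeR). *Kif20b* (ENSMUSG00000024795, chr19:34922361-34975745, plus strand), for a kinesin of the late midzone, was at 52.3, 56.5, 28.0 and 57.2 CPM in SCA1-High-FAPs against 112, 118, 78.3 and 126 CPM in SCA1-Low-FAPs. SCA1-High-FAPs 3 was far below the rest of its group (log2 fold change 1.16 ± 0.23 SE, adjusted *p* = 0.0045, edgeR). *Kif20a* (ENSMUSG00000003779, chr18:34624613-34633277, plus strand), for the kinesin that brings the passenger complex to the midzone, was at 25.0, 17.2, 15.4 and 21.3 CPM in SCA1-High-FAPs against 42.1, 60.4, 43.1 and 43.6 CPM in SCA1-Low-FAPs. SCA1-Low-FAPs 2 stood above the other 3 of its group, all of which were above the SCA1-High samples (log2 fold change 1.26 ± 0.25 SE, adjusted *p* = 0.00501, edgeR). *Kif23* (ENSMUSG00000032254, chr9:61915905-61946774, minus strand), for the motor of centralspindlin, was at 14.1, 28.9, 16.7 and 16.9 CPM in SCA1-High-FAPs against 36.7, 59.4, 36.5 and 34.6 CPM in SCA1-Low-FAPs. Again SCA1-Low-FAPs 2 was the highest, and SCA1-High-FAPs 2 was the nearest of its group (log2 fold change 1.12 ± 0.29 SE, adjusted *p* = 0.0235, edgeR). The other centralspindlin gene, *Racgap1*, was not called, with a log2 fold change of 0.78, nor was *Ect2* with 0.95. *Cit*, for citron kinase of the cleavage furrow, and *Kif4*, for a chromokinesin of the midzone, had log2 fold changes of 1.10 and 1.28 without a call. In *Cit* and *Kif4* the samples of one cell state were spread widely, with 60.6 CPM in SCA1-High-FAPs 2 against at most 25.9 CPM in the rest of its group for *Cit* and from 11.7 to 43.6 CPM in SCA1-Low-FAPs for *Kif4*.

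Of the 30 called genes 15 were called with any 1 sample left out. These were *Ccna2*, *Ccnb1*, *Cdk1*, *Plk1*, *Cenpe*, *Cenpf*, *Nuf2*, *Smc2*, *Top2a*, *Mki67*, *Aurka*, *Tpx2*, *Prc1*, *Kif20a* and *Kif20b*. The call was lost in at least 1 of the 8 fits for *Cdc20*, *Ube2c*, *Pttg1*, *Sgo1*, *Sgo2a*, *Ttk*, *Ska1*, *Cdca8*, *Smc4*, *Ncapg*, *Cdca2*, *Kif18a*, *Hmmr*, *Nusap1* and *Kif23*, most often for *Sgo1*, which kept it in 1 fit. In 57 of the 59 tested genes the log2 fold change was above 0 in all 8 fits, the exceptions being *Ncaph* and *Aurkb*.

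Of the called genes 10, *Ccna2*, *Cdc20*, *Cdca8*, *Kif18a*, *Kif20a*, *Ncapg*, *Nusap1*, *Prc1*, *Sgo2a* and *Ube2c*, have exons that overlap those of a gene on the opposite strand. The strand setting of the counting is not given in the sources used here, so reads of such pairs may not be told apart. Of the 10 partners 6 were tested and 0 called (edgeR), beside 7.68% of all tested genes, a share at which so few genes leave room for 0 calls. Their log2 fold changes ran from -0.28 for *Cdc23*, the partner of *Kif20a*, to 0.51 for *Oip5*, the partner of *Nusap1*. Whether reads of the partners entered the counts was not tested. By the criterion used for *Ccnb1*, the 3′ ends of 11 of the 60 genes match other annotated genes, and reads that could not be placed between them were not counted. Among the called genes these are *Ccnb1* with 5 other genes, *Cenpf* with 27, *Ube2c* with 10, *Prc1* with 2, and *Kif20a* and *Ncapg* with 1 each. For *Kif20a* and *Ncapg* the match is the opposite-strand partner, and for *Prc1* 1 of the 2 is its partner *Rccd1*. A match to a partner is the same stretch of the genome, so it falls under the question of strand and not under that of reads with several positions. Among the genes not called they are *Spc24* with 74, *Dlgap5* with 33, *Ndc80* with 2, and *Pbk* and *Kif2c* with 1 each.

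The second question was how far the difference extended to genes that work with the 60. A further list of 42 mitotic genes outside the set had 38 tested and a median log2 fold change of 0.93. Of the 38, 12 were called higher in SCA1-Low-FAPs, beside 3.32% of all tested genes, and 0 the other way, beside 4.36%. *Birc5*, which encodes survivin, the fourth member of the passenger complex, led the list at 82.9, 71.4, 48.0 and 90.6 CPM in SCA1-High-FAPs against 185, 148, 155 and 207 CPM in SCA1-Low-FAPs. The cell states did not overlap (log2 fold change 1.25 ± 0.20 SE, adjusted *p* = 0.00117, edgeR). The next by adjusted *p*-value were the genes for the furrow protein anillin, *Anln* (log2 fold change 1.23), for the spindle protein *Ckap2l* (1.08) and for the midbody kinesin *Kif14* (1.55). All 4 were called.

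Genes of the anaphase-promoting complex, its subunits with *Fzr1* for an activator and *Ube2s* for an enzyme, numbered 16. Of these 15 were tested, with 0 calls, beside 7.68% of all tested genes, and a median log2 fold change of 0.14. The log2 fold changes were 0.35 for *Anapc4*, 0.45 for *Anapc1*, 0.36 for *Cdc27* and 0.22 for *Anapc5*, the 4 with the lowest adjusted *p*-values. Their summed level of 1042 ± 76.8 CPM in SCA1-High-FAPs and of 1155 ± 60.8 CPM in SCA1-Low-FAPs (SD, n = 4) came from samples that overlapped. Cohesin, which holds sister chromatids together, with its loaders and regulators had 0 calls among 11 genes and a median of 0.01. So few genes leave room for 0 calls at the share of all tested genes. *Stag2* had a log2 fold change of -0.51, *Rad21* of 0.30, *Pds5a* of 0.38 and *Stag1* of -0.23. Of the 15 genes of the anaphase-promoting complex with a promoter 3 (20.0%) held a CHR, 5 (33.3%) a CCAAT box and 0 both. Among the other mitotic genes 22 of 36 (61.1%) held a CHR and 14 (38.9%) both elements. A CHR was found in 1 of 8 tubulin genes (12.5%), a list described below in which 7 of 11 genes were called. Whether these elements have a part in the differences was not tested.

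**Figure D5:**
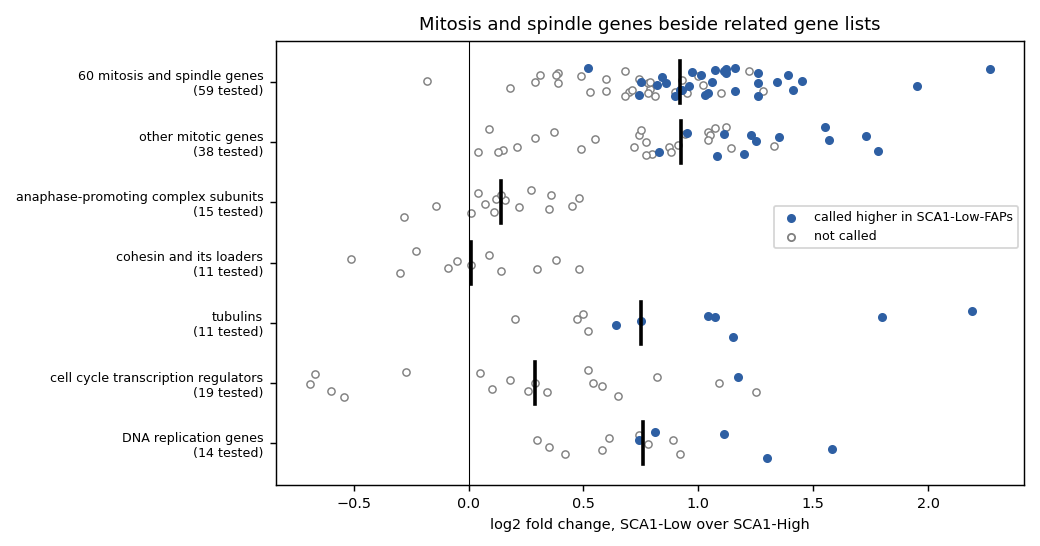
Log2 fold change of each tested gene in the set of 60 and in 6 related lists, blue where called higher in SCA1-Low-FAPs, with a black bar for the median of each list and points spread vertically only to separate them. The medians run from 0.01 for cohesin to 0.93 for the other mitotic genes, beside 0.92 for the 60.

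Tubulins, the subunits of microtubules, are used in and outside the spindle. Of 11 genes 7 were called higher in SCA1-Low-FAPs, beside 3.32% of all tested genes, and the median log2 fold change was 0.75. *Tuba4a*, which had the lowest adjusted *p*-value, was at 7.06, 12.2, 17.5 and 8.07 CPM in SCA1-High-FAPs against 57.5, 49.0, 28.9 and 69.4 CPM in SCA1-Low-FAPs. All SCA1-Low samples were above all SCA1-High samples (log2 fold change 2.19 ± 0.34 SE, adjusted *p* = 0.000981, edgeR). *Tubb2b*, *Tubb6* and *Tuba1b* followed with log2 fold changes of 1.04, 1.15 and 0.75. Reads placed at several positions were not counted, and near-identical 3′ ends were not searched for in this family.

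DNA replication genes act in S phase, before the mitotic genes. Of 14 genes 5 were called higher in SCA1-Low-FAPs, beside 3.32% of all tested genes, with a median log2 fold change of 0.76. The 4 with the lowest adjusted *p*-values were the ribonucleotide reductase genes *Rrm2* (1.30) and *Rrm1* (0.74) and the helicase genes *Mcm5* (1.11) and *Mcm3* (0.81). Among 22 regulators that act on cell cycle transcription, 19 were tested and 1 was called (5.26%), near the 7.68% of all tested genes. That gene was *Cdkn1a*, which encodes the CDK inhibitor p21, and its level was 351, 393, 319 and 351 CPM in SCA1-High-FAPs against 944, 668, 586 and 974 CPM in SCA1-Low-FAPs. It was higher in each SCA1-Low sample than in each SCA1-High sample (log2 fold change 1.17 ± 0.17 SE, adjusted *p* = 0.000672, edgeR), the same direction as the mitosis and spindle genes. *E2f4* and *Rbl2*, whose proteins belong to the DREAM complex, had log2 fold changes of 1.09 and -0.54, and *Tfdp1*, for the partner of E2F proteins, had 0.82, without a call. *Foxm1*, named here for its role at the CHR and after its values were seen, had 0.34 and was not called (edgeR, adjusted *p* = 0.607).

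The FAP markers did not move together. *Dcn* was called higher in SCA1-High-FAPs (log2 fold change -2.08) and *Thy1*, like *Ly6a*, higher in SCA1-Low-FAPs (0.67). *Pdgfra* (-0.41), *Cd34* (0.57) and *Pdgfrb* (0.37) were not called. Markers of other cell types moved with the cell states in part. The summed level of 5 adipocyte markers was 1981, 810, 1619 and 222 CPM in SCA1-High-FAPs against 54.6, 64.3, 115 and 18.5 CPM in SCA1-Low-FAPs, with *Lep* at 0 in all samples. From the most to the least adipocyte mRNA, SCA1-High-FAPs 1, 3, 2 and 4 had 2805, 2100, 2903 and 2732 CPM of the mitosis and spindle genes, and SCA1-Low-FAPs 3, 2, 1 and 4 had 3805, 4961, 5223 and 5159 CPM. The 6 leukocyte markers summed to 23.1 to 43.0 CPM in SCA1-High-FAPs against 6.77 to 15.9 CPM in SCA1-Low-FAPs, most of it *Lyz2*, while *Adgre1*, *Cd3e* and *Itgam* were at 0 and *Ptprc* had 1 count in all. Pericyte and smooth muscle markers, 5 genes, summed to 12.7 to 32.0 CPM in SCA1-High-FAPs against 21.6 to 63.2 CPM in SCA1-Low-FAPs, with overlap. In that list *Cspg4* and *Myh11* were called higher in SCA1-Low-FAPs, while *Rgs5*, at means of 3.28 and 1.91 CPM, and *Mcam*, at 5.58 and 2.47 CPM, were lower there and not tested. The 5 endothelial markers summed to 1.47 to 7.10 and 0.483 to 7.39 CPM and the 8 myogenic markers to at most 6.59 and 15.2 CPM, without separation of the cell states. The part of these differences in the results on mitosis and spindle genes was not tested.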

How the data were processed

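The deposited values are raw read counts per gene, which the authors obtained from QuantSeq 3′ mRNA libraries (FWD) with STAR 2.6.0a on mm10 and htseq-count with Ensembl release 93. Reads at several positions were not counted, and the strand setting is not given in the sources used here. Names and positions came from GENCODE M21 (31011 of 31053 identifiers matched). SCA1-Low-FAPs (n = 4) were compared with SCA1-High-FAPs (n = 4) in edgeR 4.0.16 under R 4.3.3 (quasi-likelihood fit with robust estimation), with TMM and filterByExpr (minimum count 10, minimum total 15), and Benjamini-Hochberg adjustment over all 10181 tested genes. Genes were called below an adjusted *p*-value of 0.05 where the log2 fold change exceeded 0.5 in size. The SE is the log2 fold change over the square root of F. The steps were tested on simulated data. Both the SE and the SD given after ± take in the differences between samples of a group. The CPM that 3 counts correspond to takes no account of such differences. Alternatives were DESeq2 1.42.0, other scalings and filters, a replicate block, a threshold of 0.01 and each sample left out.

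The genes and lists were chosen with earlier results of these data known. In each role up to 4 tested genes with the lowest adjusted *p*-values, at most 30 in all, were given by sample, and in each other list the 4 with the lowest adjusted *p*-values were named. Replicate numbers occur in both cell states, but no source used here says that equal numbers mark the same mouse, and over all tested genes the deviations of same-numbered samples from their group means were not correlated above 0.1 in any pair.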

Additional observations from a re-analysis of the deposited data

Results flagged for a closer look

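A sample stood apart from the other 3 of its group, with a gap to the nearest beyond Dixon's 95% value for 4 samples, in 13 of 168 groups of 84 genes checked. Chance flags about 1 group in 20. In SCA1-High-FAPs the low values were *Ube2c* at 20.0 CPM and *Kif20b* at 28.0 CPM, both in replicate 3. The high values there were *Cdca5* at 9.42 CPM and *Ncaph* at 23.5 CPM, both in replicate 1. In SCA1-Low-FAPs replicate 3 was low in *Cenpf* (122 CPM), *Nuf2* (33.0 CPM) and *Rrm2* (102 CPM), and replicate 2 was low in *Sgo2a* (47.4 CPM). Replicate 2 was high in *Aurkb* (13.1 CPM), *Ckap2* (67.0 CPM), *Kif20a* (60.4 CPM) and *Kif23* (59.4 CPM), and replicate 4 was high in *Cdca8* (97.1 CPM).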

How the results depend on the processing

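The number of mitosis and spindle genes called, 30, stayed between 27 and 38 under DESeq2 (36), RLE factors, library size alone, no filter (38), at least 10 counts in every sample, no robust estimation and a replicate block, and fell to 15 at an adjusted *p*-value under 0.01. With each sample left out in turn it ran from 18 to 34, lowest without SCA1-Low-FAPs 1. No alternative called any of the 60 higher in SCA1-High-FAPs, and 58 of 59 log2 fold changes were above 0 under all 4 scalings. The median log2 fold change of the tested genes ran from 0.80 to 1.02. Over all tested genes the 782 calls became 307 at 0.01, 1070 with DESeq2 and 410 to 1017 with a sample left out. The 12 calls among the other mitotic genes became 5 at 0.01 and 7 to 15 with a sample left out. A replicate block gave 30 calls with edgeR, 26 of them shared, and 32 with DESeq2, 27 shared. With the block in edgeR *Ccnb2*, *Kif4*, *Racgap1* and *Cit* were called (adjusted *p* = 0.0463, 0.0481, 0.0357 and 0.0148), and *Ska1*, *Smc4*, *Ncapg* and *Cdca2* were not (0.0505, 0.0575, 0.084 and 0.0767). Over all tested genes the deviations of same-numbered samples had a mean correlation of -0.018 against 0.00507 for unequal numbers. No sample correlated best with its own number. Replicate 3, however, had the lowest sum of the 60 genes in both cell states, so whether equal numbers mark the same mouse cannot be told. *Ncaph* turned from -0.18 to 0.10 and 0.12 with the block in edgeR and DESeq2, and ran from -0.49 to 0.64 with a sample left out. *Aurkb* ran from -0.14 to 2.03 in the same way. The cause of these changes was not tested, and the fits with a sample left out also had fewer samples. Depth limits the genes with few counts, whose SE was larger.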
